A study of Mus musculus with 2 samples.

Results

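The genes described here move high-energy phosphate through the heart cell: 4 creatine kinases (Ckm, Ckb, Ckmt1 and Ckmt2), the creatine transporter Slc6a8, the creatine synthesis enzymes Gatm and Gamt, the adenylate kinase Ak1 and the AMP deaminase Ampd3. They were taken by gene symbol, with identifiers matched to symbols by the GENCODE M21 annotation, and number 9 of the 43346 gene identifiers in the deposited tables. All 9 were found, and all 9 had at least 1 TPM (a level per transcript length, scaled to the same total in each library) in both libraries.

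The series holds 1 group, heart tissue of adult C57BL/6J mice at 8 weeks of age, an inbred laboratory strain, with no genetic change or treatment named. Stranded paired-end sequencing of poly(A)-containing RNA longer than 200 nucleotides, depleted of ribosomal RNA, gave reads of 76 nucleotides in 2 libraries, replicate 1 and replicate 2. The labels give littermates of mixed sex, a separate biosample for each library and a single donor record shared by both, while the number of animals in a library is unstated. Nothing in the design contrasts conditions, so the data give the level of each gene, ratios of genes within a library, and the difference between the libraries.

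Creatine kinases transfer phosphate between ATP and creatine. In heart muscle the mitochondrial enzyme charges creatine at the site of ATP production, and the cytosolic enzyme at the myofibrils and membranes regenerates ATP from phosphocreatine. Cardiomyocytes take creatine up from the blood, and its synthesis is known mainly from kidney, pancreas and liver. Adenylate kinase recovers ATP from pairs of ADP molecules and so makes AMP, which AMP deaminase converts to IMP.

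The libraries stood apart in ways that touch every comparison between them. Genes held 56516005 estimated counts in replicate 1 and 61827329 in replicate 2. Transcripts of the mitochondrial genome and their nuclear copies on chromosome 1 took 61.9% of replicate 1 TPM and 44.1% of replicate 2 TPM, which lowers the TPM of every other gene, more so in replicate 1. Xist, transcribed from the inactive X chromosome of females, had 13725 and 13 counts, whereas the Y-linked genes Ddx3y, Kdm5d, Eif2s3y and Uty had 0 counts in replicate 1 and 458 to 922 in replicate 2. The sex-linked counts were thus those of females in replicate 1 and of males in replicate 2. Neither library had the counts of a pool of both sexes, and the labels, which give littermates of mixed sex, do not state the sex of each library. All 8 cardiomyocyte markers were present (summed TPM 35781 and 41391). The 7 erythroid markers summed to 7592 TPM in replicate 1 and 94907 in replicate 2, and the 7 airway and lung markers to 0.33 and 2162 TPM. The 13 skeletal muscle markers, Ckm left out, summed to 385 and 976 TPM, mostly the skeletal actin Acta1 (358 and 907 TPM), while the skeletal myosins Myh1, Myh2 and Myh4 had 0 to 5 counts in either library. In such bulk tissue, fewer cells of a type and less RNA per cell cannot be told apart.

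The sequences around the transcription starts are shown for the 2 creatine kinases that dominated the heart, for the brain-type Ckb as their low counterpart, and for both main starts of Ak1, since a single start carried nearly all of its messages. Each window runs from 250 bases before to 50 after the start (RefSeq, build GRCm38.p6), 5′ to 3′ on the gene's strand. Capitals mark matches, on either strand, to the TATA-like motif TATANA, to the binding motif of the muscle factor MEF2 or to the CArG box of serum response factor.
Ckm, chr7:19410844-19411143, plus strand: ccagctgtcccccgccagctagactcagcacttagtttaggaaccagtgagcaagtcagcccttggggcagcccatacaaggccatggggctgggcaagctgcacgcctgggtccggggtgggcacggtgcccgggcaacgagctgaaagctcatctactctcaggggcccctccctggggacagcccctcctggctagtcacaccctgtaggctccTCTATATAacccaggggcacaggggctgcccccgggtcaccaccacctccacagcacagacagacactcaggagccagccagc
Ckmt2, chr13:91876836-91877135, minus strand: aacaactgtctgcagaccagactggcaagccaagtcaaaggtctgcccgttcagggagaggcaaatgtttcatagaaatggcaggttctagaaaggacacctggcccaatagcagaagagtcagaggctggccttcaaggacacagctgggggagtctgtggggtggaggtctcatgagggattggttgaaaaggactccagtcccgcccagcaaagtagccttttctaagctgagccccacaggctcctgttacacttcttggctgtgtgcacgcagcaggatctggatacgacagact
Ckb, chr12:111672289-111672588, minus strand: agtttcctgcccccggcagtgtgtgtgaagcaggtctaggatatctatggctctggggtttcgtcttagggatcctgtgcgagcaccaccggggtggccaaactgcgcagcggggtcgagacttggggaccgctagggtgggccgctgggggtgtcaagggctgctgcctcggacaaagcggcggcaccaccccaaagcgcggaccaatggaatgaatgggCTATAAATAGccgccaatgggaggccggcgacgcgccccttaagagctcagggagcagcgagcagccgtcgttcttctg
Ak1, main start, chr2:32625187-32625486, plus strand: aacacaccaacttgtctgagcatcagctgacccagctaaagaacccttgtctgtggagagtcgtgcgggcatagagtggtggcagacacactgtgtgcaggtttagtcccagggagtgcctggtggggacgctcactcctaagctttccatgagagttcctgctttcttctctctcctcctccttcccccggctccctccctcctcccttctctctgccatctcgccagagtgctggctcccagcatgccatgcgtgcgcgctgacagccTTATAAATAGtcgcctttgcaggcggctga
Ak1, upstream start, chr2:32621508-32621807, plus strand: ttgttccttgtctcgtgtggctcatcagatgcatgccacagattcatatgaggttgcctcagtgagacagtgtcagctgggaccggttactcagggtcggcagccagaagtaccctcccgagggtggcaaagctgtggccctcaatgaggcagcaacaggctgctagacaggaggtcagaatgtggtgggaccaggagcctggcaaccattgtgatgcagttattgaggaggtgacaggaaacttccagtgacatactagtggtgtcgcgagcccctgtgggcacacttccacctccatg

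The Ckm window held overlapping TATA-like matches from position -33, counted from the start as 1 with no position 0. That start is the RefSeq one, at 19411094, while Ckm-201 starts at 19411063 in GENCODE M21, within these matches. In the Ckb window a TATA-like match at -28 lay within a MEF2 match at -29. The main Ak1 window held the same combination, but at positions 22 and 21, downstream of the annotated start, and the upstream Ak1 window and the Ckmt2 window held none of the 3 motifs. Among 32851 such windows of all genes, 24.7% held a TATA-like match, 1.86% a MEF2 match and 1.63% a CArG match. E-boxes, the CANNTG motif bound by muscle basic helix-loop-helix factors, stood in 72.3% of all windows and in 11 of the 14 windows of these genes. The printed windows held 4 for Ckmt2, 1 for Ckm, 0 for Ckb, 1 for the main Ak1 start and 3 for the upstream Ak1 start. CCAAT, searched on both strands, stood in 37.4% of all windows and occurred 2 times each in the Ckmt2 and Ckb windows. These matches describe the letters of the windows only. RefSeq windows were at hand for 8 of the 9 genes, and Slc6a8 was not among them.

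Muscle and mitochondrial creatine kinase were among the most abundant nuclear messages of the heart. Ckm (ENSMUSG00000030399.1, chr7:19404776-19422841, plus strand), the cytosolic muscle enzyme, had 1595 TPM in replicate 1 and 2525 TPM in replicate 2, from 120456 and 202141 estimated counts. By mean TPM it ranked 21 among 21461 protein-coding genes of the nuclear genome. Ckmt2 (ENSMUSG00000021622.3, chr13:91853387-91876885, minus strand), the sarcomeric mitochondrial enzyme of heart and skeletal muscle, had 1193 and 1266 TPM and ranked 33. Ckm exceeded Ckmt2 in both libraries, 1.34-fold in replicate 1 and 2.00-fold in replicate 2. In TPM it was Ckm that was unequal between the libraries and Ckmt2 that was nearly level. With mitochondrial transcripts and their copies left out of TPM, Ckm was nearly level (4376 in replicate 1 and 4667 in replicate 2). Ckmt2 then was higher in replicate 1 (3274, against 2339 in replicate 2). That total still held the erythroid messages, far higher in replicate 2, which lowers the TPM of the other genes there. With counts scaled on the bulk of the genes (TMM), also without mitochondrial genes, the log2 ratio of replicate 1 over replicate 2 was -0.49 for Ckm and 0.087 for Ckmt2. Which gene was unequal in TPM thus depended on what the total held.

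The partner isoenzymes were far lower. Ckb (ENSMUSG00000001270.8, chr12:111669361-111672338, minus strand), the cytosolic enzyme known from brain and smooth muscle, had 36.9 TPM in replicate 1 and 57.7 TPM in replicate 2, rank 1111. Ckmt1 (ENSMUSG00000000308.10, chr2:121357714-121363737, plus strand), the ubiquitous mitochondrial enzyme, had 1.63 and 2.73 TPM from 84 and 173 counts, rank 9327. The muscle form exceeded the non-muscle form in both compartments. The log2 ratio was 5.44 ± 0.01 for Ckm over Ckb and 9.19 ± 0.47 for Ckmt2 over Ckmt1 (SD, n = 2). Within the non-muscle forms Ckb exceeded Ckmt1 by 4.45 ± 0.07 (SD, n = 2). Of the summed TPM of the 4 creatine kinases, 2826 in replicate 1 and 3851 in replicate 2, Ckm held 56.4% and 65.6% and Ckmt2 42.2% and 32.9%. Ckb held 1.31% and 1.5%, and Ckmt1 0.0577% and 0.0709%. Smooth muscle is among the tissues in which Ckb is known, and its 6 markers summed to 712 TPM in replicate 1 and 899 TPM in replicate 2. Without Des, which cardiomyocytes also express, the other 5 summed to 460.25 and 484.8 TPM. The 9 neuronal and glial markers summed to 12.2 and 19.4 TPM, and the 7 adipocyte markers to 304 and 492 TPM. The part of any of these cells, or of the cardiomyocytes themselves, in the Ckb level was not tested.

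**Figure D1:**
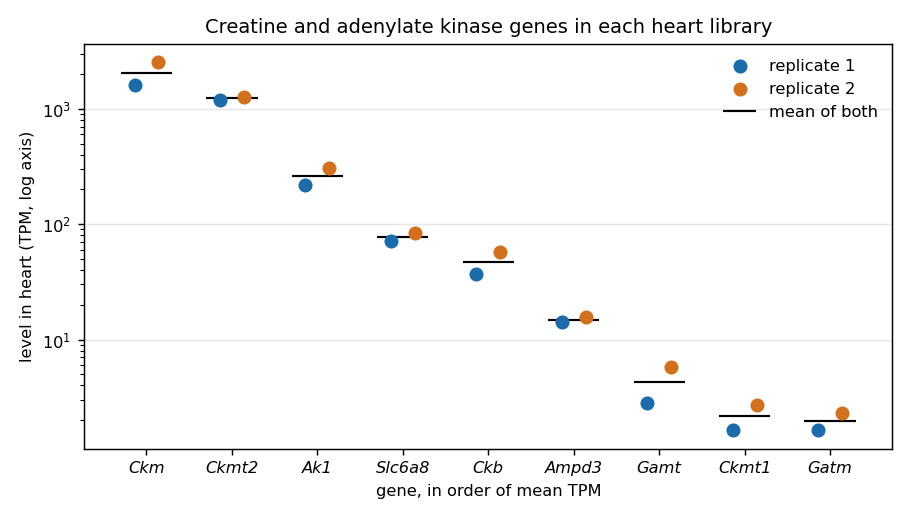
Level of each gene in TPM (log axis) in replicate 1 (blue, left) and replicate 2 (orange, right), with the mean of both as a line. The levels run over about 3 powers of 10, from Ckm at 1595 and 2525 TPM to Gatm at 1.63 and 2.31 TPM, and each gene is lower in TPM in replicate 1.

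A single leading transcript per creatine kinase was compared, and none shared a stretch as long as a read with another. For Ckmt1 this was Ckmt1-202, of 10 annotated, and for Ckm the sequence of the later annotation. The longest run of bases shared by 2 of these transcripts was 39 nucleotides, between Ckmt2 and Ckmt1, and 20 between Ckm and Ckb, against a read length of 76. Of the 76-base stretches of the Ckb transcript, 13.2% also occurred in the processed pseudogene Gm12892, to which the authors' tables assigned 19.4 and 26.8 counts, against 2931 and 4858 for Ckb. In Ckm, 20.4% of stretches matched the antisense gene A930016O22Rik, which overlaps it on the opposite strand and had 0 and 1 counts. The authors' posterior standard deviation of a count reached at most 0.97 counts in any of the 9 genes. Whether their counting used strand is unstated. The Ckm level also depends on the annotated length: its transcript is 1415 nucleotides long in the files and 1235 in the later annotation, and the same counts at that shorter length would give 1873 and 2963 TPM.

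Creatine uptake was expressed well above creatine synthesis. Slc6a8 (ENSMUSG00000019558.10, chrX:73673150-73682502, plus strand), which carries creatine into the cell with sodium and chloride, had 71.4 TPM in replicate 1 and 83.0 TPM in replicate 2, rank 684. Gatm (ENSMUSG00000027199.10, chr2:122594467-122611303, minus strand), the mitochondrial enzyme that makes guanidinoacetate from arginine and glycine, had 1.63 and 2.31 TPM, rank 9615. Gamt (ENSMUSG00000020150.9, chr10:80258151-80261012, minus strand), which methylates guanidinoacetate to creatine, had 2.79 and 5.80 TPM, rank 7330. The transporter exceeded Gatm 43.8-fold in replicate 1 and 35.9-fold in replicate 2, and Gamt 25.6-fold and 14.3-fold. Both synthesis enzymes were thus detected at a low level in both libraries. Gamt exceeded Gatm in TPM by 1.05 ± 0.39 on the log2 scale (SD, n = 2), but had fewer counts in replicate 1 (136 against 195 for Gatm) and about as many in replicate 2 (300 against 299), as its transcript is shorter. Of markers of organs known for creatine synthesis, the 5 kidney markers summed to 0.35 and 0.40 TPM, the 4 pancreas markers to 0.67 and 0.53 TPM with Prss1 and Ins2 at 0 in both, and the 4 liver markers to 12.5 and 1.04 TPM. All 4 liver markers were called higher in replicate 1, as were 576 of the 16145 genes tested. The part of such cells in the Gatm and Gamt levels was not tested.

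Ak1 led the 8 adenylate kinase genes analysed. Ak1 (ENSMUSG00000026817.10, chr2:32621758-32635058, plus strand), the cytosolic enzyme of muscle and red cells, had 218 TPM in replicate 1 and 309.6 TPM in replicate 2, rank 206, and held 74.0% and 81.5% of their summed TPM. Ak3, the mitochondrial matrix enzyme that uses GTP, held 11.2% and 9.78%, and Ak6, a nuclear member of the family, 11.03% and 6.95%. The matrix enzyme Ak4 followed with 3.72% and 1.56%. The log2 ratio of Ak1 was 2.89 ± 0.23 over Ak3 and 5.01 ± 0.99 over Ak4 (SD, n = 2). The spread was wider over Ak4, which was the 1 gene of these 8 called higher in replicate 1. Red cells are a known source of Ak1, and the erythroid markers were lower in replicate 1 (7592 TPM, against 94907 TPM in replicate 2); their part in the Ak1 level was not tested. Both leading creatine kinases stood above Ak1, Ckm by 2.95 ± 0.11 and Ckmt2 by 2.24 ± 0.30 on the log2 scale (SD, n = 2).

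Ampd3 (ENSMUSG00000005686.12, chr7:110768206-110812405, plus strand), the AMP deaminase known as the red-cell form, had 14.1 TPM in replicate 1 and 15.6 TPM in replicate 2, rank 3321. Ampd2, the form known from liver, had 9.76 and 14.8 TPM, and the log2 ratio of Ampd3 over Ampd2, 0.30 ± 0.32 (SD, n = 2), was smaller than its spread. Ampd1, the form of skeletal muscle, had 0 and 5 counts. With the 0 counts replaced by a floor of 3, Ampd3 was at least 422-fold higher than Ampd1 in replicate 1, and it was 259.5-fold higher in replicate 2. In shares of the summed TPM, Ampd3 held 59.0% and 51.1%, and Ampd2 41.0% and 48.7%. The log2 ratio of Ampd3 between the libraries was 0.036. All 7 erythroid markers were called lower in replicate 1, as were 1325 of the 16145 genes tested. The part of red cells in the Ampd3 level was not tested. The 3′ part of Ampd3 overlaps Rnf141 on the opposite strand over 11974 nucleotides, and Rnf141 had 1999 and 1359 counts, against 3174 and 3697 for Ampd3. Of the 76-base stretches of Ampd3, 3.28% lay in the transcripts of Rnf141 or of the miRNA gene Gm47282.

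**Figure D2:**
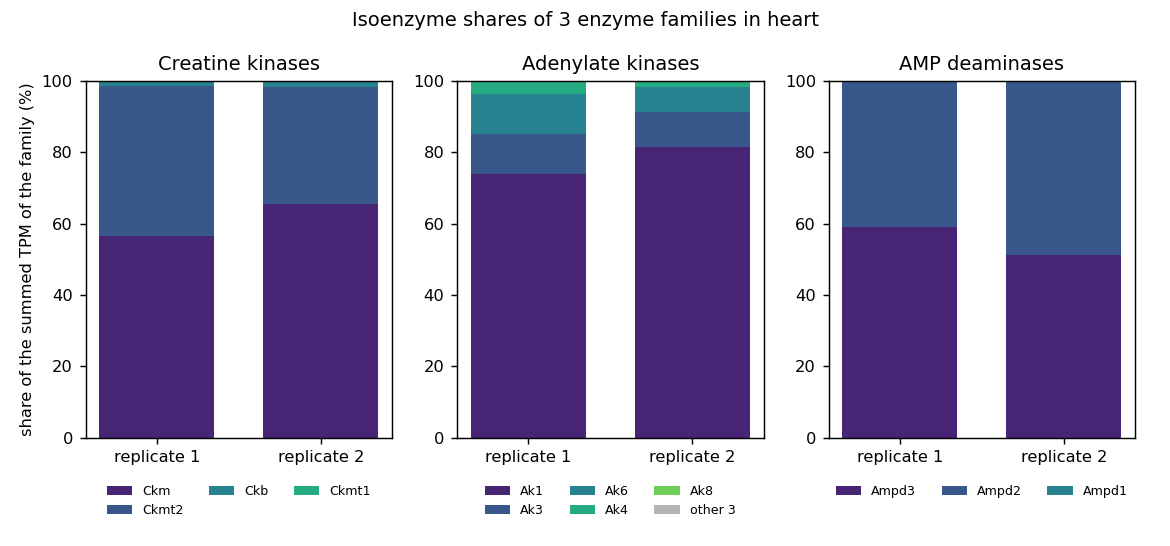
Share of each isoenzyme in the summed TPM of the creatine kinases, the 8 adenylate kinases analysed and the AMP deaminases, in replicate 1 (left bar) and replicate 2 (right bar). Ckm (56.4% and 65.6%) and Ckmt2 (42.2% and 32.9%) fill the creatine kinases, Ak1 holds 74.0% and 81.5% of the adenylate kinases analysed, and Ampd3 and Ampd2 share the AMP deaminases.

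In order of mean TPM the genes ran Ckm (2059.9 ± 658), Ckmt2 (1229 ± 51.5), Ak1 (264 ± 64.9), Slc6a8 (77.2 ± 8.22), Ckb (47.3 ± 14.7), Ampd3 (14.8 ± 1.06), Gamt (4.30 ± 2.13), Ckmt1 (2.18 ± 0.778) and Gatm (1.97 ± 0.481; SD, n = 2 each). Ckmt1 and Gatm were the only neighbours in that order whose values in the libraries overlapped, both standing at 1.63 TPM in replicate 1. Of the 13 pairs compared, the first gene was higher in both libraries in all 13. The pairs were chosen with earlier results of these data known, so this count describes them and tests nothing. With 2 libraries the smallest two-sided p of an exact sign test is 0.5. The protein-coding genes nearest in level to Ckm over the 2 libraries were Cox4i1 (1695 and 2467 TPM), a cytochrome oxidase subunit, the atrial natriuretic peptide Nppa (1427 and 2370.3 TPM) and Uqcr11 (1835 and 2751 TPM), of respiratory complex III. Nearest to Ckmt2 were the chaperone Hspa8 (1264 and 1266 TPM), the complex I subunit Ndufb8 (1066 and 1282 TPM) and the cytochrome oxidase subunit Cox6b1 (1063 and 1238 TPM). Likeness was the distance between log2(TPM + 1) values, which with 2 libraries is little more than likeness in level.

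Between the libraries, none of the 9 genes passed both the adjusted p of 0.05 and the fold of 2, where 11.8% of the 16145 genes tested did. The test was a two-sided exact binomial test of counts scaled by TMM, a method that lines up libraries on the bulk of their genes, and it compares these libraries, not conditions, with no replicate check. All 9 genes had counts enough to be tested, and 8 had an unadjusted p below 0.05. At this depth such p-values are reached by small differences: the median size of the log2 ratio over all genes tested was 0.39, and 11282 of them had an unadjusted p below 0.05. Without the fold limit 7 of the 9 were called lower in replicate 1, where 32.9% of all genes tested were, and 1, Ckmt2, was called higher. Those 8 of 9 stand beside 67.8% of all genes tested that were called in either direction without the fold limit. With replicate 1 on top, the log2 ratio had a median of -0.36 over the 9 genes and 0.015 over all genes tested.

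Gamt differed most. Its 136 counts in replicate 1, against 300 in replicate 2, gave a scaled ratio of 0.541 (95% interval 0.439 to 0.665, counting error only; adjusted p = 3.82e-09, exact binomial test), short of the fold limit. Ckmt1 had a ratio of 0.580 (0.441 to 0.757; adjusted p = 7.55e-05, exact binomial test). Among the abundant genes the log2 ratio was -0.49 for Ckm, -0.47 for Ckb and -0.33 for Ak1. These 3 lay near the median size of 0.39 over all genes. Slc6a8 had -0.074, Gatm -0.36, Ckmt2 0.087 and Ampd3 0.036, Ampd3 not passing the test (adjusted p = 0.371, exact binomial test). Slc6a8 lies on the X chromosome. Beside 13725 Xist counts in replicate 1 and 13 in replicate 2, its TMM-scaled ratio of 0.95 (95% interval 0.927 to 0.974, counting error only) was close to even. The log2 ratio of Slc6a8 was -0.22 in TPM and 0.26 after correction for GC content, so its direction depended on the scaling.

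The direction of several genes turned with the scaling. The log2 ratio of all genes followed GC content, with a median of 0.58 in the lowest of 20 bins (38.7% GC) and -0.52 in the highest (61.0% GC), and the transcripts of the 9 genes ran from 43.2% GC in Gatm to 61.7% in Ckb. With that trend subtracted, Ckb moved to 0.052 and Slc6a8 to 0.26, Ckmt2 to 0.018, Ampd3 to -0.041, Ckm to -0.33, Ak1 to -0.15, Gamt to -0.42, Ckmt1 to -0.58 and Gatm, the GC-poor member, to -0.78. The median over the 9 genes then was -0.15, with 6 of 9 lower in replicate 1. In TPM all 9 were lower in replicate 1, and with mitochondrial transcripts and their copies left out of TPM 4 of 9 were. The 9 genes together made up 0.313% of replicate 1 TPM and 0.427% of replicate 2 TPM, but 0.860% and 0.789% of the TPM of the remaining genes. Scaling by gene totals called 1 gene, Gamt, at -1.01, just past the fold limit. The share of all genes called under that scaling is not given here, so this count has no background beside it. Beside the lower Ckm in replicate 1, the sum of the skeletal muscle markers was also lower there, 385 against 976 TPM. Most of that sum was Acta1 (358 and 907 TPM). Of the 13 markers 3 were called lower, where 1325 of the 16145 genes tested were. The part of such cells in the Ckm result was not tested.

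**Figure D3:**
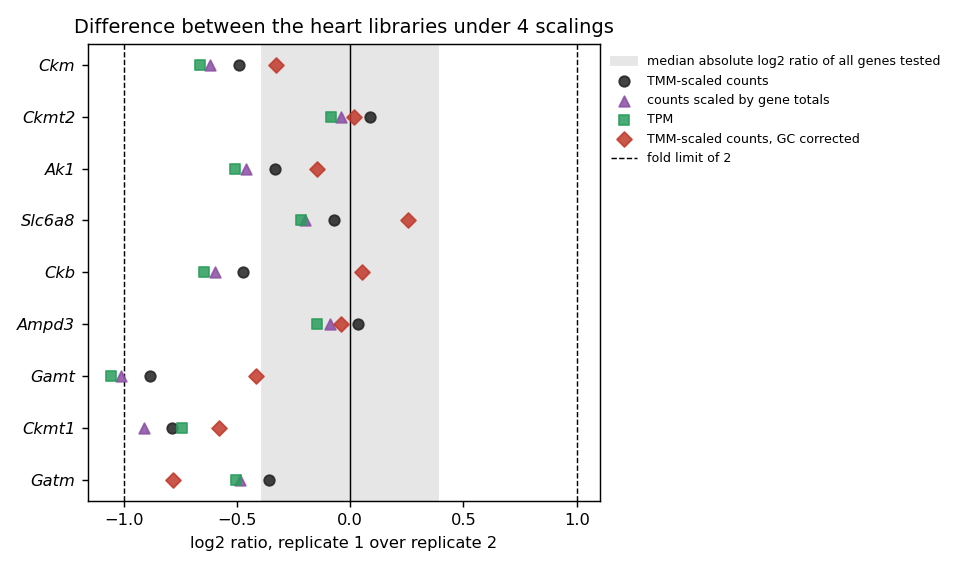
Log2 ratio of replicate 1 over replicate 2 for each gene under 4 scalings: counts scaled by TMM (circles), by gene totals (triangles), TPM (squares), and TMM-scaled counts after the GC trend was subtracted (diamonds). The grey band marks the median size over all genes tested (0.39 on either side of 0) and dashed lines the fold limit. Gamt alone reaches the limit, in TPM and with gene totals, and Ckb, Slc6a8, Ckmt2 and Ampd3 lie on both sides of 0.

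The files hold 46 transcripts of the 9 genes, a single one each for Ckm, Ckmt2 and Ckb. Of the other 6 genes, 5 had the same leading transcript in both libraries. Ak1-202, from the main start printed above (chr2:32625437-32635054), held 96.0% of Ak1 TPM in replicate 1 and 96.4% in replicate 2, and Ak1-203 from the upstream start 2.58% and 2.40%. Ampd3 was divided between Ampd3-201 (69.1% and 68.0%), which starts at position 110772604 of chromosome 7, and Ampd3-206 (26.9% and 28.1%), which starts upstream at 110768206. The shares of those starts differed between the libraries by little more than 1 percentage point at most. Gamt-202 held 86.4% and 82.1% of Gamt, and Gamt-201 6.45% and 14.5%, from 8.47 and 43.1 estimated counts. Gatm-201 held 83.4% and 85.8% of Gatm, the rest of Gatm being a transcript with a retained intron that rested on 10 and 13 counts.

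Slc6a8 was spread over the largest number of transcripts, 13 in the files, of which 10 had counts in both libraries. Slc6a8-203, the leading protein-coding form, held 52.6% of Slc6a8 TPM in replicate 1 and 39.9% in replicate 2. Slc6a8-201, a longer protein-coding form that starts upstream, held 7.05% and 16.1%, from 1180 and 3302 estimated counts. Transcripts not annotated as protein coding, among them Slc6a8-202 (16.8% and 22.8%), annotated as a target of nonsense-mediated decay, and Slc6a8-205 with a retained intron (9.05% and 7.63%), held 33.9% and 39.5% of Slc6a8 TPM. The level of the gene in TPM is therefore not that of its protein-coding messages alone. Ckmt1 had no stable leader: Ckmt1-209 led in replicate 1 (47.5%, against 0% in replicate 2) and Ckmt1-202 in replicate 2 (51.3%, against 8.64% in replicate 1), but 84 and 173 counts were divided there over 10 annotated transcripts.

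**Figure D4:**
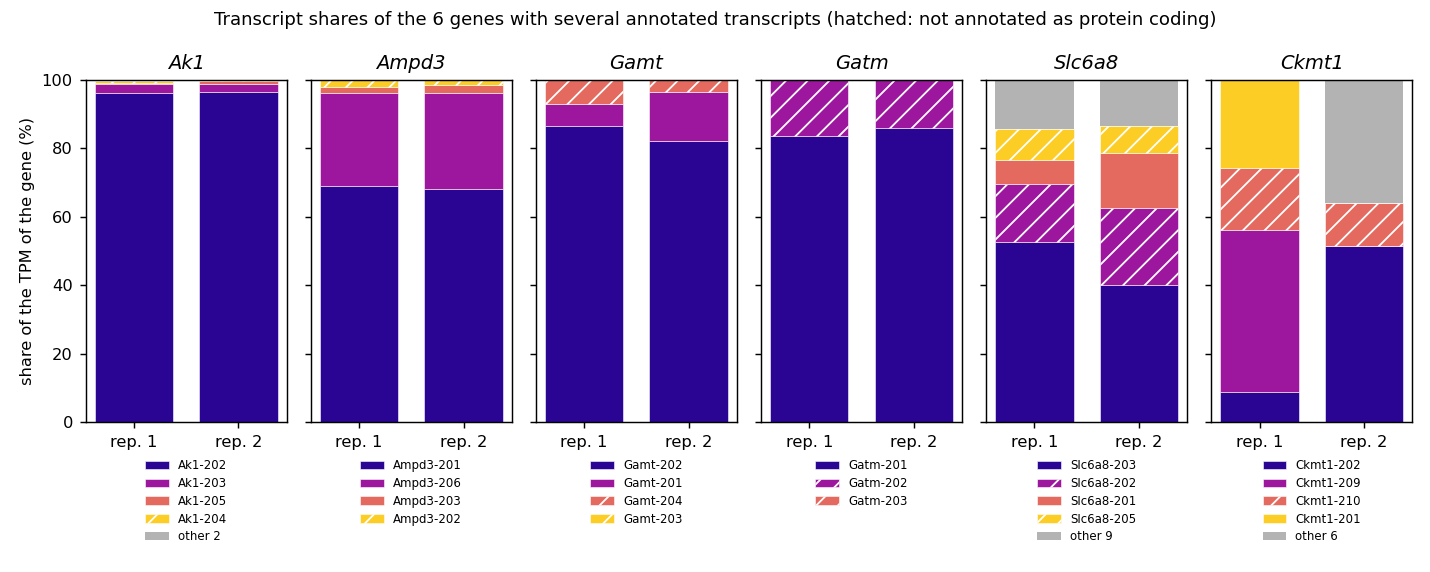
Share of each annotated transcript in the TPM of its gene, replicate 1 left and replicate 2 right, for the 6 genes with several transcripts (hatched where not annotated as protein coding). The leading transcripts of Ak1, Ampd3, Gamt and Gatm are the same in both libraries, Gamt-201 holds less in replicate 1 (6.45%) than in replicate 2 (14.5%), Slc6a8-203 holds more in replicate 1 (52.6%) than in replicate 2 (39.9%), and Ckmt1 changes its leading transcript.

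Genes that work beside these enzymes were taken in lists. Of 57 genes in 7 lists, 54 matched a gene in the tables and 49 were tested between the libraries, with 1 called higher in replicate 1, 3 called lower and 45 not called, against 11.8% called of all genes; the median log2 ratio was 0.090. The ADP and ATP exchange list, whose proteins pass nucleotides across the mitochondrial membranes next to Ckmt2, was the most abundant. Slc25a4, the heart and muscle ADP/ATP carrier of the inner membrane, had 1914 TPM in replicate 1 and 2601 TPM in replicate 2, followed by the outer membrane channel Vdac1 (249 and 224 TPM) and the carrier Slc25a5 (192 and 225 TPM). Slc25a4 stood 1.60-fold and 2.06-fold above Ckmt2, and 1.2-fold and 1.03-fold above Ckm. The order with Ckm depends on the annotated length of Ckm. At its shorter length in the later annotation (1873 and 2963 TPM), Ckm was below Slc25a4 in replicate 1 and above it in replicate 2. These ratios were chosen with the values known. Of the 6 genes of the list tested, 1, the testis carrier Slc25a31 (7 and 25 counts), was called lower in replicate 1.

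Among the 5 tested members of the adenylate kinase list, which leaves out Ak1, 1 was called higher in replicate 1, 2 lower and 2 not. Ak4 had 10.95 TPM in replicate 1 and 5.91 TPM in replicate 2, a log2 ratio of 1.13 (adjusted p = 2.64e-131, exact binomial test). After GC correction its log2 ratio was 1.01, at the fold limit and still called. Ak7 (1 and 46 counts) and Ak8 (5 and 28 counts), adenylate kinases known from motile cilia, were the members called lower. The airway and lung markers summed to 0.33 TPM in replicate 1, against 2162 TPM in replicate 2. All 7 of these markers were called lower, as were 1325 of the 16145 genes tested. The part of airway cells in the Ak7 and Ak8 result was not tested. No gene was called in the remaining lists before GC correction. After it, Nt5c1a, of adenosine and AMP handling, was called higher in replicate 1, its log2 ratio moving from 0.66 to 1.05. In the purine nucleotide cycle, which returns IMP to AMP, Adsl had 34.5 and 35.6 TPM and the muscle adenylosuccinate synthetase Adssl1 29.5 and 39.8 TPM, both above Ampd3. In adenosine and AMP handling the nucleoside transporter Slc29a1 (64.0 and 83.8 TPM), adenosine kinase Adk (44.1 and 35.8 TPM) and Aprt (11.9 and 18.1 TPM), which salvages adenine, were highest, with 11 genes tested. Of the 6 nucleoside diphosphate kinases tested, Nme2 led with 164 and 251 TPM, before Nme3 (19.3 and 24.7 TPM) and Nme1 (12.1 and 17.1 TPM).

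In the list of arginine and methyl supply, 9 genes were tested. Mat2a (46.7 and 34.3 TPM) and Mat2b (26.7 and 27.5 TPM), catalytic and regulatory subunits of the enzyme that makes the methyl donor used by Gamt, and the taurine transporter Slc6a6 (22.2 and 20.7 TPM), of the same family as Slc6a8, were highest. Slc6a6 stood at 0.310 of the Slc6a8 level in replicate 1 and at 0.249 in replicate 2. Of 8 genes of AMP sensing tested, subunits of AMP-activated kinase and its activator, Stk11 (42.6 and 58.9 TPM), Prkag1 (48.9 and 46.8 TPM) and Prkab1 (25.7 and 38.9 TPM) were highest. All 8 had at least 1 TPM in both libraries.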

How the data were processed

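Both heart libraries were taken as replicates of 1 group, named and numbered by the labels. Per the file headers, the deposited expected counts estimate how many fragments came from each gene or transcript, and the deposited TPM (maximum likelihood and posterior mean) and FPKM values scale them by effective length. The deposited percent per transcript (its share of the gene), the lengths and the posterior SD of each count come from the same tables, per the file headers. Build mm10 and GENCODE M4 are named in the notes deposited with the tables. Aligner and quantifier: not given in the sources used here.

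Of 43346 identifiers 42462 (98.0%) matched GENCODE M21. Expected counts were rounded, and a two-sided exact binomial test (2 times the smaller tail) was run on each gene with 20 or more counts in all, given TMM-scaled sizes (factors 0.957 and 1.04, edgeR 4.0.16, R 4.3.3), with Benjamini-Hochberg adjustment over 16145 genes and a fold of at least 2. edgeR's quasi-likelihood test could not be fitted, since 1 library against 1 leaves no residual degrees of freedom. The GC trend was the median log2 ratio in 20 bins of GC, over genes with at least 200 counts. Ratios between genes used TPM, with a floor of 3 counts per library where a gene was at 0. The SDs measure the spread between these libraries, which also differed in sex-linked counts and in markers of other tissues. Biological and technical parts of that spread cannot be told apart. The p-values, intervals and floors cover counting error only. RefSeq windows were searched on both strands. Software comprised Python 3.11.15 with scipy 1.17.1, pandas 2.3.3, numpy 2.4.6 and matplotlib 3.10.9, and DESeq2 1.42.0 gave size factors for an alternative.

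The genes, lists, pairs and tests were chosen with earlier results of these data known. Named genes are the 9 genes, up to 3 of highest mean TPM and every called gene of each list, and the 3 nearest in level to Ckm and Ckmt2. Genes that overlap or share sequence with a member, Nt5c1a and the partner ratios were added after their values were seen. Some values are not reported here, and lists, shares and counts are given without them. Adss1, Adss2 and Pnp matched no symbol and were not analysed here. The lists of junctions and contigs on mm9 were not used here.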

Additional observations from a re-analysis of the deposited data

How the results depend on the processing

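No paired analysis was possible because the series has 1 group. With expected counts in place of TPM, the log2 ratio of Gamt over Gatm turned to -0.26, since counts are not divided by length. By counts the other pairs that moved kept their direction: Ckm over Ckb 5.37, Ckmt2 over Ckmt1 9.71, Ckb over Ckmt1 4.97, Ckm over Ak1 2.35, Ckmt2 over Ak1 1.72, Slc6a8 over Gamt 6.01, Slc6a8 over Gatm 5.75, Ak1 over Ak3 2.44, Ak1 over Ak4 3.97, Ampd3 over Ampd2 1.74 and Ampd3 over Ampd1 9.79. With a pseudocount of 1 TPM, Ckm over Ckb was 5.41, Ckmt2 over Ckmt1 8.62, Ckb over Ckmt1 3.91, Slc6a8 over Gatm 4.72 and Ampd3 over Ampd1 3.94. With posterior mean TPM, Ckb over Ckmt1 was 4.16 and Ampd3 over Ampd1 7.07. At the M21 length of Ckm, an alternative chosen after seeing the data, Ckm over Ckb was 5.67 and Ckm over Ak1 3.18.

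Between the libraries the log2 ratio reversed with gene totals for Ckmt2 (-0.039) and Ampd3 (-0.090), in TPM for Ckmt2 (-0.085) and Ampd3 (-0.15), and with GC correction for Ckb (0.052), Slc6a8 (0.26) and Ampd3 (-0.041). The cause was not tested beyond the GC trend itself. Of the 9 genes, gene totals called 1, a count without a share over all genes beside it. Without the fold limit 8 were called, where 67.8% of all genes tested were. Without the fold limit the calls were 4 for adenylate kinases, 3 for the purine nucleotide cycle, 9 for adenosine handling, 5 for ADP and ATP exchange, 2 for nucleoside diphosphate kinases, 4 for arginine and methyl supply and 7 for AMP sensing, of 5, 4, 11, 6, 6, 9 and 8 genes tested. DESeq2 size factors, no count filter and TMM without mitochondrial genes changed no call of the 9 genes. With either library alone every pair kept its direction. Depth limits Ckmt1, Gatm and Gamt, at 84 to 300 counts.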
